A study of Mus musculus with 4 samples.

Results

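The granzymes and cytotoxic effector genes are 10 genes, Gzma, Gzmb, Gzmk, Prf1, Nkg7, Fasl, Klrd1, Klrk1, Ncr1 and Eomes, chosen by gene symbol from the 38087 genes of a deposited table of reads. All 10 were found, each as 1 row, and all 10 passed the filter on low counts. Becn1 encodes Beclin-1, a component of the autophagy machinery. The 2 samples labelled Becn1-M-KO (here KO) came from mice with a myeloid deletion of Becn1 and are described by the submitters as B cell lymphomas. They were compared with 2 samples labelled wild type (here WT), cervical lymph node controls. All 4 samples were labelled C57BL/6, cervical lymph node and 20 weeks of age. The driver of the myeloid deletion is not given in the sources used here. Genotype and tumour cannot be told apart. The labels do not say whether replicates are different animals, and the spread behind each p-value is only that between these libraries, possibly a technical one.

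Cytotoxic T cells and natural killer (NK) cells kill by releasing granules that hold perforin and granzymes. Perforin opens the membrane of the target cell and granzymes, a family of serine proteases, enter it and cleave proteins there. The same cells can also kill through Fas ligand, which engages the death receptor Fas. Receptors such as NKG2D, CD94 and NKp46 govern when a killer cell acts, and the T-box transcription factors Eomes and T-bet drive the expression of many of these genes.

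The libraries held 15604247 and 20067004 reads in KO and 16141605 and 17874699 reads in WT. The WT libraries were unlike each other. Levels are given as CPM, counts per 1000000 reads of the library after scaling with TMM factors. The summed level of an 11-gene T cell list was 495 and 478 CPM in KO, against 12.1 and 690 CPM in WT replicates 1 and 2. A 6-gene B cell list stood at 1426 and 1345 CPM in KO, against 5.07 and 1072 CPM in WT, and a 7-gene epithelial list at 9.0 and 14.9 CPM in KO, against 2507 and 1020 CPM in WT. WT replicate 1 was nearly without the defining markers of a lymph node, with 1 read of Cd3e. A 4-gene macrophage list stood at 758 and 724 CPM in KO, against 140 and 728 CPM in WT. Lyz2 alone gave 567 CPM of the sum in WT replicate 2. The other genes of this list, Csf1r, Cd68 and Adgre1, were higher in both KO libraries than in both WT libraries. Becn1 stood at 49.5 and 53.3 CPM in KO and 54.8 and 63.4 CPM in WT (log2 fold change −0.20, SE 0.21, adjusted p = 0.557 by edgeR's quasi-likelihood test), a whole-tissue level that does not check a deletion in myeloid cells. The female-specific transcript Xist had 3 and 34 reads in KO and 2088 and 5314 reads in WT, so sex and genotype cannot be told apart either.

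**Figure D1:**
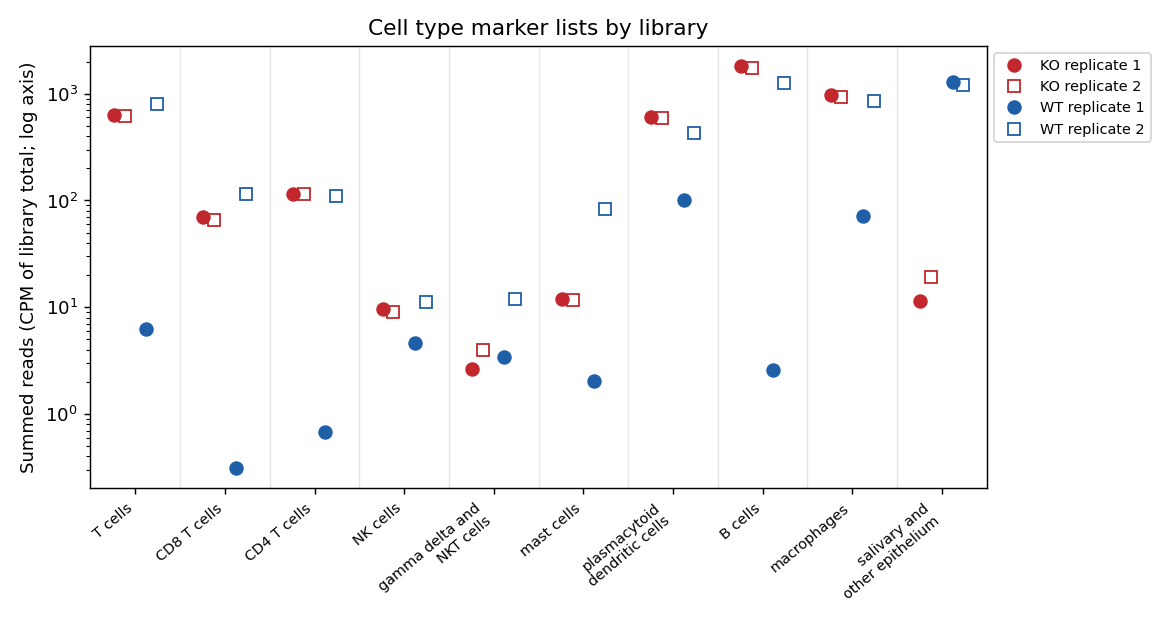
Summed reads of 10 cell type marker lists in each library, in CPM of the library total on a log axis, with KO points (red) left of WT points (blue); filled circles are replicate 1 and open squares replicate 2. WT replicate 1 lies far below the other libraries for T cells (630 and 618 in KO, against 6.20 and 809 in WT replicates 1 and 2) and for B cells, while both WT libraries lie far above KO for epithelium.

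Promoters are shown for Gzmk, which was the only one of the 10 genes past the threshold, for Gzmb, which stood next to it, and for Nkg7, because it shares a motif with Gzmk. The sequences are from RefSeq (build GRCm38.p6, the assembly of mm10), 250 bases before to 50 after the annotated start, read 5′ to 3′ on the gene's strand. RefSeq windows matched 9 of the 10 genes. The Gzmk window is chr13:113180916-113181215 (minus strand), the Gzmb window chr14:56262285-56262584 (minus strand) and the Nkg7 window chr7:43436888-43437187 (plus strand). These starts differ from those of the deposited spans. The Gzmk window lies near the start of the shorter Gzmk transcripts, while the deposited span starts at 113225908. The deposited Nkg7 span starts at 43437073, inside the window, so the marked Nkg7 match lies within that span. Capitals mark matches, on either strand, to 3 motifs: GGTGTGA, a core bound by T-box factors such as Eomes and T-bet, TGTGGTT, bound by RUNX factors, and TGANTCA, bound by AP-1.
Gzmk: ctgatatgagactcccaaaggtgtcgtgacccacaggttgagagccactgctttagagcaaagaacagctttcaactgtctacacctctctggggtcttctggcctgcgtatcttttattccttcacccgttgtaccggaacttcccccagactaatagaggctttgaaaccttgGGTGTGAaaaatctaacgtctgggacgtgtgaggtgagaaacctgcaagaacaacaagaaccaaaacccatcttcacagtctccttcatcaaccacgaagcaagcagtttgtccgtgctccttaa
Gzmb: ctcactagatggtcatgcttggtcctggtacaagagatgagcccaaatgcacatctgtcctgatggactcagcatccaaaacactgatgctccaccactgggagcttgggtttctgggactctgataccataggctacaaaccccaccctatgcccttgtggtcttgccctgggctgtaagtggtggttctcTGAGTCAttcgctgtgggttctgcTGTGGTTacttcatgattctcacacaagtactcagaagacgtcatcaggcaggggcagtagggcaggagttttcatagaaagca
Nkg7: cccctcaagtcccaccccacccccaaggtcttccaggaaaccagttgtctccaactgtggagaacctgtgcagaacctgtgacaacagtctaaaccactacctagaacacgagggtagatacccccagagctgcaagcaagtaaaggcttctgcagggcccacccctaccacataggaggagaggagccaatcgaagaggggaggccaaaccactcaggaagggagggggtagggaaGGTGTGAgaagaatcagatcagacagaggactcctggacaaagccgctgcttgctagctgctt
The T-box letters stood 75 bases before the start in Gzmk and 13 before it in Nkg7, and in no other of the 9 genes with a window. The Gzmb window held an AP-1 match 58 bases and a RUNX match 34 bases before the start, and these matches did not overlap. Of the 9 genes with a window, 2 held the T-box letters, 4 the RUNX letters (Gzma, Gzmb, Klrk1 and Ncr1) and 2 the AP-1 letters (Gzmb and Klrk1). Among all 32851 windows of this length, 3.98% held the T-box letters, 5.27% the RUNX letters and 7.81% the AP-1 letters. A match describes the letters only.

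Of the 10 genes, 1 rose and 0 fell in KO past the threshold (adjusted p of 0.05 over the 20695 genes tested). Among all genes tested, 1.04% rose and 2.18% fell. At an unadjusted p under 0.05, 3 of the 10 were higher (Gzmk, Gzmb and Fasl) and 0 lower, against 10.5% and 16.4% of all genes. DESeq2 called the same 3 genes higher and 0 lower, against 6.4% and 11.7% of all genes. With limma-voom 1 was called higher and 0 lower (1.21% and 1.95% of all genes), and edgeR with no filter on low counts called 2 higher and 0 lower (1.75% and 3.84%). The median log2 fold change was 1.11 over the 10 genes and 0.01 over all genes tested. In 7 of the 10 genes both KO libraries stood above both WT libraries, and in 1 (Ncr1) below, while 34.3% and 33.3% of all genes were separated in these directions.

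**Figure D2:**
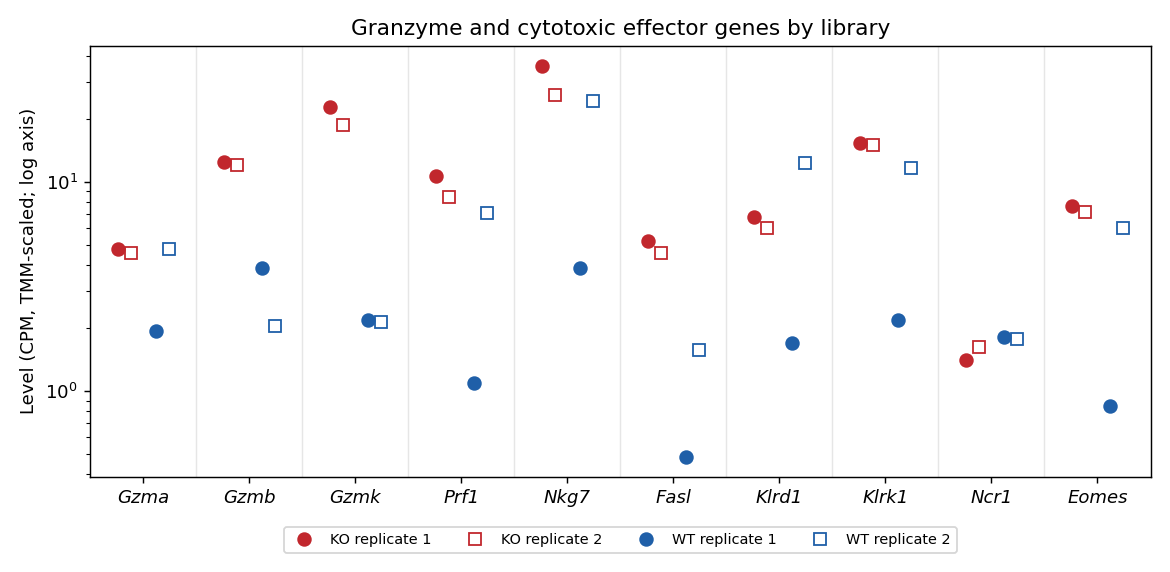
Level of each of the 10 genes in each library, in TMM-scaled CPM on a log axis, with KO points (red) left of WT points (blue); filled circles are replicate 1 and open squares replicate 2. Gzmk is near 20 CPM in KO and at 2.17 and 2.15 CPM in WT, while for Prf1, Nkg7, Klrk1 and Eomes WT replicate 2 lies just under the KO libraries and WT replicate 1 far below.

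Gzmk, a granzyme with trypsin-like specificity, was the 1 gene of the 10 that rose past the threshold. Its level was 22.8 and 18.8 CPM in KO (454 and 487 reads), against 2.17 and 2.15 CPM in WT (18 and 45 reads). With TMM scaling the WT libraries gave the same level, although their T cell reads differed widely. Scaled by library totals alone, WT replicates 1 and 2 stood at 1.12 and 2.52 CPM, against 29.1 and 24.3 CPM in KO. Both KO libraries stood far above both WT libraries by either scaling. The KO mean of 20.8 ± 2.88 CPM was 9.63 times the WT mean of 2.16 ± 0.0195 CPM (SD, n = 2 each), with a log2 fold change of 3.26 (SE 0.27, adjusted p = 0.0435). The value hardly depended on the WT library, at 3.27 against WT replicate 2 alone and 3.23 against WT replicate 1 alone. Gzmk no longer passed when KO replicate 1 (3.12) or KO replicate 2 (3.41) was left out, or with library totals alone (3.87, adjusted p = 0.0666). In these settings no gene of all those tested passed. A whole tissue does not tell more cells of a type from more RNA per cell, here or below.

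The span listed for Gzmk holds another gene. The deposited table gives Gzmk chr13:113171608-113225908 (minus strand), a span of 54301 bases set by 1 long transcript, Gzmk-202, while the other coding transcript, Gzmk-201, covers 9260 bases. Esm1, an endothelial gene on the opposite strand (chr13:113209659-113218098), lies within the long span and outside the short transcript. Esm1 had 158 and 129 reads in KO and 9 and 35 in WT. Strand use in the counting is not given in the sources used here, so some Gzmk reads may be from Esm1. The Esm1 reads were then taken from Gzmk in every library. This left 296 and 358 reads (14.9 and 13.8 CPM) in KO and 9 and 10 (1.09 and 0.477 CPM) in WT. This gave a log2 fold change of 4.29 (SE 0.50, adjusted p = 0.0475), and 4.90 without WT replicate 1, so the difference was larger with these reads taken out. In the authors' deposited table of comparisons Gzmk had a log2 fold change of 6.93 and an unadjusted p of 0.00763. That value was far larger than those from the reads, with or without the Esm1 reads. How the authors' log2 values were made from reads is not given in the sources used here, and the reason for the gap was not tested.

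Gzmb, the granzyme that cleaves after aspartate and activates caspases (chr14:56258856-56262260, minus strand), did not pass. Its level was 12.37 and 12.02 CPM in KO (246 and 312 reads), against 3.86 and 2.05 CPM in WT (32 and 43 reads). The groups did not overlap, and the lowest level was in WT replicate 2, the library with the highest T cell list level. Gzmb had a log2 fold change of 2.07 (SE 0.41, adjusted p = 0.0793). Against WT replicate 2 alone edgeR gave 2.57, and against WT replicate 1 alone 1.64. DESeq2 called it on all 4 libraries (adjusted p = 0.00251), and the authors' deposited table gave a log2 fold change of 2.14 and an unadjusted p of 0.0273. Only Gzmk and Gzmb of the 10 genes were in that table, which lists 6.52% of all 38087 genes as higher in KO, and none was in the authors' shorter lists of 86 rises and 71 falls.

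Mast cells of mice can also hold Gzmb. The 8-gene mast cell list summed to 9.41 and 9.13 CPM in KO, against 3.99 and 71.7 CPM in WT, with the KO libraries between the WT libraries. Fcer1a, the IgE receptor chain of mast cells, had 0 reads in both KO libraries and in WT replicate 1 and 23 in WT replicate 2. The proteases Mcpt4, Cma1 and Tpsb2 had 3 to 10 reads each in the KO libraries. Hdc, which encodes histidine decarboxylase and is not limited to mast cells, was the most abundant gene of this list in both KO libraries, with 122 and 127 reads in KO against 11 and 50 in WT (log2 fold change 1.53, adjusted p = 0.130). The part of mast cells in the Gzmb level was not tested.

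Gzma, another trypsin-like granzyme (chr13:113093825-113100979, minus strand), showed another pattern. It stood at 4.78 and 4.55 CPM in KO (95 and 118 reads), against 1.93 and 4.77 CPM in WT (16 and 100 reads). WT replicate 2 lay between the KO libraries. Its log2 fold change was 0.44 (SE 0.52, adjusted p = 0.606) and −0.03 without WT replicate 1. The 3 granzymes thus had log2 fold changes of −0.03 (Gzma, SE 0.23), 2.57 (Gzmb, SE 0.22) and 3.27 (Gzmk, SE 0.22) against WT replicate 2 alone; differences between genes were not tested.

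Prf1, which encodes perforin (chr10:61297836-61304263, plus strand), stood at 10.6 and 8.44 CPM in KO (211 and 219 reads), against 1.09 and 7.06 CPM in WT (9 and 148 reads). Nkg7, a granule membrane protein needed for exocytosis of the granule contents (chr7:43437073-43438246, plus strand), stood at 35.9 and 25.9 CPM in KO, against 3.86 and 24.2 CPM in WT. In both genes WT replicate 2 lay just below the lower KO library and WT replicate 1 far below. The log2 fold changes were 1.17 for Prf1 (SE 0.88, adjusted p = 0.435) and 1.12 for Nkg7 (SE 0.90, adjusted p = 0.463). Against WT replicate 2 alone they were 0.43 (adjusted p = 0.111) and 0.35 (adjusted p = 0.128), and against WT replicate 1 alone 3.10 and 2.97. Their size thus depended on which WT library was used.

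Fasl, which encodes Fas ligand (chr1:161780691-161788495, minus strand), stood at 5.23 and 4.59 CPM in KO (104 and 119 reads), against 0.483 and 1.57 CPM in WT (4 and 33 reads). The groups did not overlap. The difference was 2.15 on the log2 scale (SE 0.61, adjusted p = 0.131), and 1.64 without WT replicate 1 or 3.31 without WT replicate 2. DESeq2 called it on all 4 libraries (adjusted p = 0.0212).

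Among the receptors, Klrk1 encodes NKG2D, an activating receptor for stress-induced ligands (chr6:129610323-129623864, minus strand). It stood at 15.34 and 14.95 CPM in KO (305 and 388 reads), against 2.17 and 11.6 CPM in WT (18 and 244 reads), a log2 fold change of 1.10 (SE 0.81, adjusted p = 0.429). The value without WT replicate 1 was 0.38 (adjusted p = 0.0511). Klrk1 thus lay with Prf1 and Nkg7: above both WT libraries, but close to the second.

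Klrd1, which lies beside it (chr6:129591782-129598775, plus strand), encodes CD94, the partner chain of the NKG2 receptors A, C and E. It stood at 6.79 and 6.01 CPM in KO (135 and 156 reads), against 1.69 and 12.3 CPM in WT (14 and 258 reads). The KO libraries lay between the WT libraries. Over all 4 libraries Klrd1 differed by −0.16 on the log2 scale (SE 0.93, adjusted p = 0.924). Without WT replicate 1 Klrd1 fell by 0.94, and without WT replicate 2 it rose by 1.90. No direction can be given for Klrd1 from these libraries.

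Ncr1, which encodes NKp46, an activating receptor largely restricted to NK cells and innate lymphoid cells (chr7:4337724-4345164, plus strand), stood at 1.408 and 1.618 CPM in KO (28 and 42 reads), against 1.81 and 1.76 CPM in WT (15 and 37 reads). Its log2 fold change was −0.24 (SE 0.34, adjusted p = 0.674), and at 15 to 42 reads a library a difference of this size was not detectable. Scaling by library totals alone reversed its sign, to 0.37. The 5-gene NK list, which holds Ncr1, summed to 7.54 and 6.93 CPM in KO, against 9.06 and 9.59 CPM in WT. By library totals alone the sums were 9.61 and 8.97 CPM in KO, against 4.65 and 11.2 CPM in WT, so the order of the groups depended on the scaling. Single genes differed between WT replicates 1 and 2 in both directions, with Klra4 at 1.93 and 0.334 CPM and Klre1 at 0.845 and 2.86 CPM. By either scaling NK list sums were far closer between the WT libraries than T cell list sums were.

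Eomes, a T-box transcription factor of NK cells and effector and memory CD8 T cells (chr9:118478212-118486132, plus strand), stood at 7.70 and 7.20 CPM in KO (153 and 187 reads), against 0.845 and 6.01 CPM in WT (7 and 126 reads). Eomes differed by 1.06 on the log2 scale (SE 0.89, adjusted p = 0.483), and 0.31 without WT replicate 1 (adjusted p = 0.244). The antisense gene Gm33460 overlaps its end. Tbx21, which encodes the related factor T-bet, stood at 34.3 CPM in both KO libraries, against 1.33 and 4.87 CPM in WT (log2 fold change 3.41, SE 0.66, adjusted p = 0.0774). Against WT replicate 2 alone, Tbx21 rose by 2.82. T-bet is also made by helper T cells and by some B cells.

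**Figure D3:**
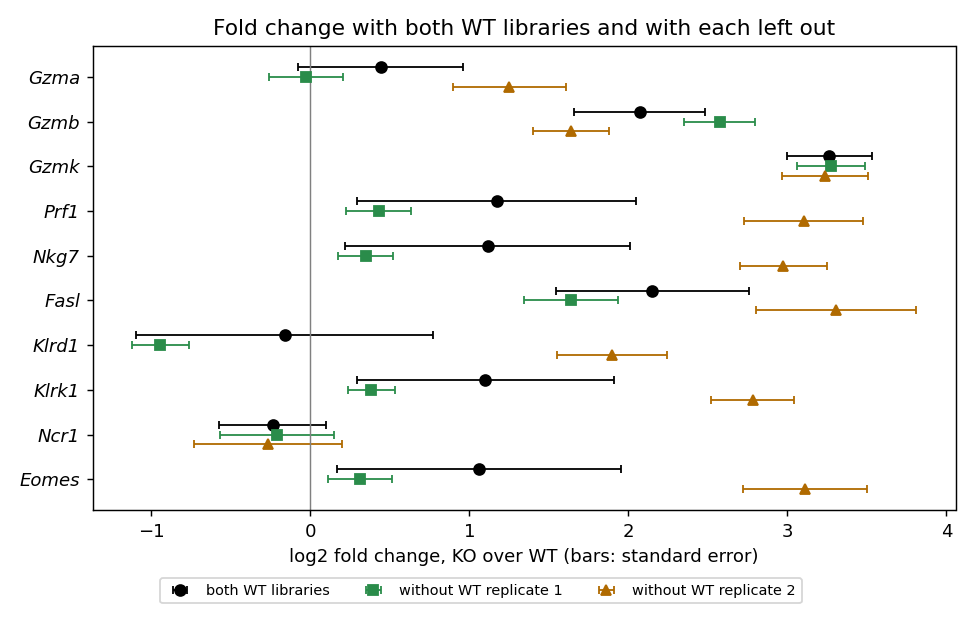
log2 fold change of each gene, KO over WT, with standard errors, in the test of all 4 libraries (black) and with WT replicate 1 (green) or WT replicate 2 (brown) left out. The 3 values for Gzmk lie between 3.23 and 3.27, while those for Klrd1 run between −0.94 and 1.90.

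Without WT replicate 1, the library nearly free of lymphocyte reads, 3 of the 10 genes rose (Gzmk, Gzmb and Fasl) and 1 fell (Klrd1), where 20.9% and 22.8% of all genes tested rose and fell. The median over the 10 genes was then 0.37. Without WT replicate 2, the log2 fold change was positive in 9 of the 10 genes, and Ncr1 was the exception (−0.27). The median was then 2.88 over the 10 genes and 0.056 over all genes tested. Each of these fits had 1 WT library left, and the spread was estimated from the KO pair alone. The WT pair differed far more than the KO pair (chi-square per degree of freedom 767 against 12.1). Calls and p-values from fits with 1 WT library, in every paragraph, thus rest on a spread smaller than that between the WT libraries.

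The number of T cell reads was used as another measure. It was 9832 and 12398 reads in KO and 100 and 14470 reads in WT for the 11-gene T cell list, and each gene was set against it within its own library, with exact 95% binomial intervals that cover counting error only. Gzmk had 46.2 (41.9 to 50.7) and 39.3 (35.8 to 43.0) reads per 1000 T cell reads in KO, against 3.11 (2.27 to 4.16) in WT replicate 2. Gzmb had 25.02 (21.96 to 28.4) and 25.17 (22.4 to 28.2) in KO, against 2.97 (2.15 to 4.005) in WT replicate 2. Fasl had 10.6 and 9.60 in KO, against 2.28 in WT replicate 2. By this measure KO stood 13.7, 8.44 and 4.42 times above WT replicate 2 for these 3 genes.

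Prf1, Nkg7, Klrk1 and Eomes stood 1.90, 1.79, 1.85 and 1.76 times above WT replicate 2 per T cell read, Gzma 1.39 and Ncr1 1.21 times above, and Klrd1 at 0.737 times its level. WT replicate 1 cannot be read in this way as a T cell value. Its 100 T cell reads, beside 4 reads of Fasl and 32 each of Gzmb and Nkg7, put its ratio above both KO libraries for each of the 10 genes. With both WT libraries in the mean, the log2 ratio in KO minus WT was 0.85 for Gzmk and −0.30 for Gzmb, and against WT replicate 1 alone it was −2.08 and −3.67. By this measure the direction for both genes thus rests on which WT library is used. With 2 samples a group an exact two-sided permutation test cannot give a p under 0.333, so none was run.

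**Figure D4:**
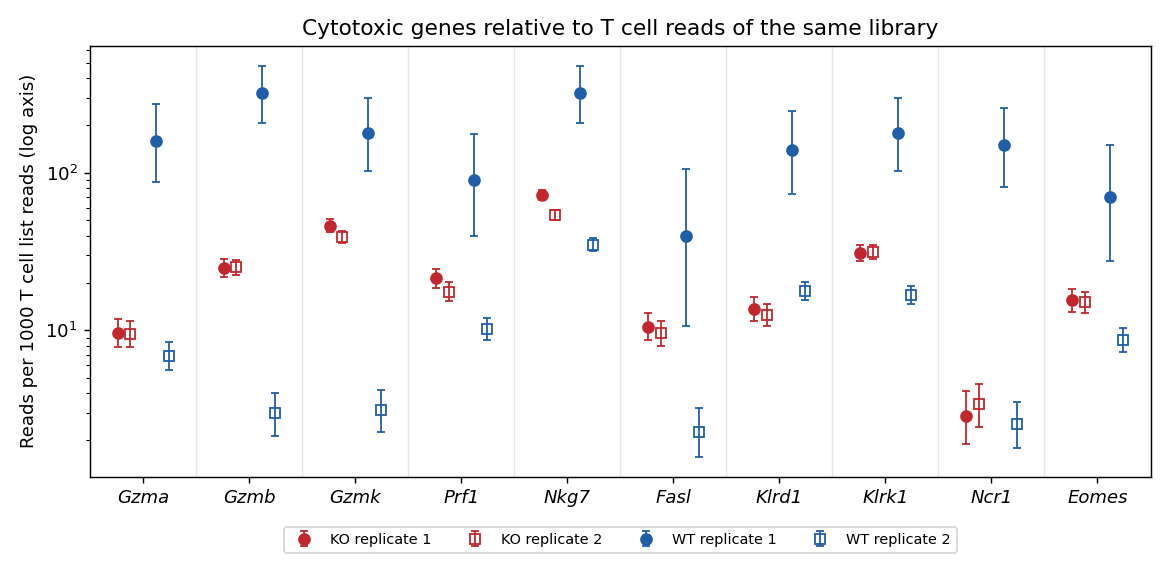
Reads of each gene per 1000 reads of the T cell list in the same library, on a log axis, with KO points (red) left of WT points (blue) and exact 95% binomial intervals. Gzmk, Gzmb and Fasl stand well above WT replicate 2 in both KO libraries, Klrd1 below it, and WT replicate 1, with 100 T cell reads, lies above all others.

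Reads of the CD8 genes had another order than those of Gzmk and Gzmb. Cd8a, a chain of the CD8 co-receptor, stood at 41.0 and 36.7 CPM in KO, against 0.242 and 57.1 CPM in WT, and Cd8b1, the other chain, at 14.5 and 14.1 CPM in KO, against 0.362 and 40.5 CPM in WT. Both were lower in KO than in WT replicate 2. Cd4, the co-receptor of helper T cells, stood at 90.2 and 89.2 CPM in KO, against 1.33 and 94.0 CPM in WT. Per 1000 reads of Cd8a and Cd8b1, Gzmk had 411 and 369 reads in KO, against 21.99 in WT replicate 2. Which cells made the granzyme reads was not tested.

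Other genes of the cytotoxic pathway were taken from 10 lists of 116 genes, of which 111 were matched and 102 tested. Of these, 4 rose and 0 fell (1.04% and 2.18% of all genes), and in 61 both KO libraries stood above both WT libraries (34.3% of all genes). At an unadjusted p under 0.05, 24 were higher and 5 lower (10.5% and 16.4% of all genes), and DESeq2 called 23 higher and 2 lower (6.4% and 11.7%). With KO replicate 1 or KO replicate 2 left out, no gene of all those tested passed, so these settings show nothing particular to the 102. At the effector end, Ifng, the cytokine of activated killer and helper T cells, rose by 5.06 (SE 0.53, adjusted p = 0.0456), with 10.01 and 9.56 CPM in KO against 0.121 and 0.382 CPM in WT. The other 4 tested genes of its list, the chemokine genes Xcl1, Ccl3, Ccl4 and Ccl5, were also higher in both KO libraries, with Ccl4 next (2.78, adjusted p = 0.0530). The list median was 2.43, and 3.05 without WT replicate 1, where 4 of 5 rose (20.9% of all genes).

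**Figure D5:**
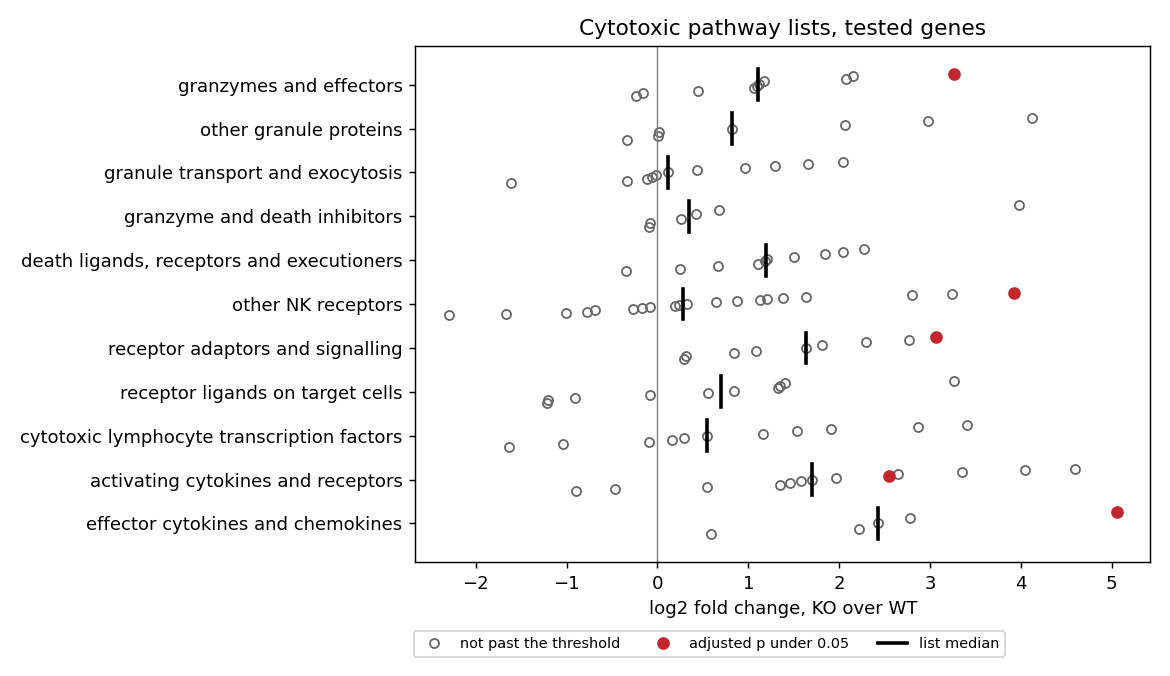
log2 fold change, KO over WT, of each tested gene of the 10 granzyme and effector genes (top) and the 10 other pathway lists; filled red circles passed the threshold and black bars are list medians. Single genes passed in 5 of the 11 rows, and the highest list median, 2.43, is that of the effector cytokines and chemokines.

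Among genes that activate killer cells, Il12rb2, a chain of the IL-12 receptor, rose by 2.55 (SE 0.30, adjusted p = 0.0475), with 21.6 and 20.7 CPM in KO against 2.90 and 4.25 CPM in WT. Il12b, which encodes a subunit of IL-12, stood at 13.03 and 12.14 CPM in KO against 0.121 and 0.763 CPM in WT (4.60, SE 0.72, adjusted p = 0.0610). Of 13 tested genes in this list 1 rose and 0 fell, with a median of 1.70. Il15, a cytokine that sustains NK and memory CD8 T cells, and Il2 had negative values (−0.90 and −0.46). Without WT replicate 1, 11 of the 13 rose and 0 fell, where 20.9% and 22.8% of all genes did.

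Among the other NK receptors, 1 of 20 tested genes rose and 0 fell, with a median of 0.28. This was Klrb1b, which encodes an inhibitory NKR-P1 receptor, at 25.6 and 27.9 CPM in KO against 1.33 and 2.10 CPM in WT (3.92, SE 0.33, adjusted p = 0.0435). Klri1, an inhibitory partner of KLRE1, had a value of 2.80 (adjusted p = 0.0854). The Ly49 receptor gene Klra8 had few reads, 6 and 9 in KO against 18 and 25 in WT (−2.30, SE 0.50, adjusted p = 0.0895). Members of the Klra, Klrb1 and Klrc families are close copies, so their reads may be shared. Without WT replicate 1, 4 of 21 rose and 5 fell, shares near the 20.9% and 22.8% of all genes.

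Among adaptors, Fcer1g, the Fc receptor gamma chain that also couples NKp46 and is abundant in myeloid cells, rose by 3.07 (SE 0.31, adjusted p = 0.0456), with 152 and 142 CPM in KO against 14.0 and 20.9 CPM in WT. Tyrobp, the DAP12 adaptor shared with myeloid cells, had a value of 2.77 (adjusted p = 0.134). Hcst, the DAP10 adaptor of NKG2D, stood at 14.0 and 15.1 CPM in KO against 0.966 and 21.9 CPM in WT (0.32, adjusted p = 0.889). Macrophage markers moved with the myeloid adaptors: Cd68 stood at 154 and 155 CPM in KO against 9.66 and 27.6 CPM in WT, and Adgre1 at 41.0 and 44.8 CPM in KO against 20.2 and 13.8 CPM in WT, while Lyz2 stood at 131 and 146 CPM in KO against 59.8 and 567 CPM in WT. The part of macrophages in these values was not tested.

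In the granule list 0 of 7 tested genes passed in edgeR (median 0.82). At an unadjusted p under 0.05 in edgeR, 2 were higher and 0 lower (10.5% and 16.4% of all genes). DESeq2 also called 2 higher and 0 lower (6.4% and 11.7% of all genes). Ctsc, the protease that activates granzyme precursors, came nearest, at 615 and 620 CPM in KO against 60.6 and 95.9 CPM in WT (2.98, SE 0.40, adjusted p = 0.0501), and macrophages make it too. Cst7, cystatin F, an inhibitor of that protease, stood at 116 and 111 CPM in KO against 0.604 and 12.1 CPM in WT (4.12, SE 1.36, adjusted p = 0.163). Ctsw, a cathepsin of NK and CD8 T cells, stood at 15.9 and 13.2 CPM in KO against 3.86 and 32.5 CPM in WT, the order seen for Klrd1. Gzmm, a further granzyme gene, had 32 and 36 reads in KO and 10 and 36 in WT (0.01, adjusted p = 0.994). Gzmc to Gzmg and Gzmn, the granzyme genes near Gzmb, had 0 to 7 reads in each KO library and 0 to 16 in each WT library, and none passed the filter over all 4 libraries. Gzmc passed it without WT replicate 2, with a log2 fold change of −2.87 at 5 and 7 reads in KO against 16 in WT replicate 1.

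The 4 remaining effector-side lists had 0 genes past the threshold in edgeR. DESeq2 called 1 gene lower in the transport list and 1, 4 and 2 higher in the inhibitor, death ligand and transcription factor lists, the same counts as at an unadjusted p under 0.05 in edgeR. Of all genes, DESeq2 called 6.4% higher and 11.7% lower, and 10.5% and 16.4% were at an unadjusted p under 0.05. Without WT replicate 1, edgeR called 4 higher and 1 lower of 11 in the transport list, 3 and 0 of 6 in the inhibitor list, 7 and 0 of 10 in the death ligand list and 8 and 2 of 11 in the transcription factor list, where 20.9% and 22.8% of all genes were called. Granule transport and exocytosis had a median of 0.12 over 11 genes. It holds Rab27a, which docks the granules, at 27.9 and 28.2 CPM in KO against 105 and 66.9 CPM in WT (−1.616, SE 0.31, adjusted p = 0.0746), and Lyst, mutated in Chediak-Higashi syndrome, at 1.30 (adjusted p = 0.209). Granzyme and death inhibitors had a median of 0.34 over 6 genes, with Serpina3g at 3.98 (SE 1.34, adjusted p = 0.168) and Serpinb9, the intracellular inhibitor of granzyme B, at 0.68 (adjusted p = 0.288). Serpina3g (11345 and 13959 reads in KO, against 41 and 1366 in WT) overlaps Serpina3h, which had 11805 and 14624 reads in KO, against 44 and 1441 in WT, so these may be the same reads. Death ligands, receptors and executioners had a median of 1.19 over 10 genes, with Tnfrsf10b, the receptor for TRAIL, at 1.84 (adjusted p = 0.0682). The cytotoxic transcription factors had a median of 0.54 over 11 genes (0.70 without WT replicate 1 and 2.76 without WT replicate 2), with Prdm1, which encodes BLIMP-1, at 2.86 (adjusted p = 0.0604).

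The list of ligands on target cells had 0 of 10 tested genes past the threshold in edgeR (median 0.70). At an unadjusted p under 0.05 in edgeR, 1 was higher and 2 lower (10.5% and 16.4% of all genes). DESeq2 called 2 higher and 0 lower (6.4% and 11.7% of all genes). The class I gene H2-K1 stood at 3692 and 3424 CPM in KO against 1097 and 1599 CPM in WT (1.40, adjusted p = 0.234). Pvr, the ligand of the activating receptor DNAM-1, had a value of −0.91 (adjusted p = 0.124), and H60c, a ligand of NKG2D, one of 3.27 (adjusted p = 0.0997) at a level under 1 CPM in each library. The NKG2D ligand genes Raet1e and H60b overlap each other and may share reads. Raet1e had a value of −1.20 (adjusted p = 0.133). H60b had no steady direction, with 280 and 400 reads in KO against 56 and 1286 in WT, and values of −1.22 over all 4 libraries, −2.05 against WT replicate 2 alone and 1.11 against WT replicate 1 alone. With WT replicate 1 left out, 5 of 11 tested ligand genes, 5 of 7 granule genes and 5 of 9 adaptor genes rose and 3, 1 and 2 fell, beside 20.9% and 22.8% of all genes.

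The remaining marker lists were a 2-gene gamma delta and NKT list, at 2.06 and 3.08 CPM in KO and 6.64 and 10.2 CPM in WT, and a 6-gene plasmacytoid dendritic cell list, at 477 and 458 CPM in KO and 195 and 369 CPM in WT. Within that list Siglech stood at 6.74 and 8.98 CPM in KO against 1.45 and 28.0 CPM in WT. Bst2 (131 and 115 CPM in KO, 34.4 and 59.9 CPM in WT), Ccr9 (88.7 and 91.3 CPM in KO, 61.0 and 66.1 CPM in WT) and Spib (163 and 152 CPM in KO, 0.725 and 124.5 CPM in WT) were above both WT libraries. Runx2, at 19.0 and 17.3 CPM in KO against 45.65 and 19.65 CPM in WT, was below both. Tcf4 (68.9 and 74.1 CPM in KO, 52.2 and 71.4 CPM in WT) overlapped between the groups. The part of these cells in the granzyme levels was not tested.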

How the data were processed

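Libraries of rRNA-depleted RNA from 4 samples, 2 a group, were read by Ion Torrent, per the labels. The authors deposited read counts per gene, whole numbers that are not normalized, per the file headers. The length given for each of the 38087 genes is its genomic span, introns included. The authors also deposited log2 values, centred on each gene's median, and a table of log2 fold changes with unadjusted p-values, per the file headers; genes in that table have a p-value under 0.05. The submitters' processing notes name mm10 and DESeq2 1.62 without a role, and no aligner or counter was found in the labels. A further 8 per-sample columns were not used.

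The counts entered edgeR 4.0.16 (R 4.3.3) with TMM scaling, its quasi-likelihood test and filterByExpr (at least 10 reads, 15 in total), fitted on all genes, with Benjamini-Hochberg adjustment over 20695 genes. Adjusted p-values are from this test unless another is named. SE is the absolute log2 fold change over the square root of F. DESeq2 1.42.0 and limma 3.58.1 were alternatives, beside other scalings, filters, a replicate block and each library left out. The step was also run on simulated data, with an outcome that is not reported here. Replicates differed by more than counting noise (chi-square per degree of freedom 12.1 in KO and 767 in WT). The 10 genes and all lists were chosen with earlier results of these data known. Named companion genes are those past the threshold and those with the 2 smallest p-values of each list. Not every gene this rule names is reported here. Those named outside this rule, with the overlapping genes and the single marker genes, were chosen after their values were seen.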

Additional observations from a re-analysis of the deposited data

How the results depend on the processing

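The log2 fold change was positive for Gzmk under all 14 alternatives run for it (3.12 to 4.90) and for Gzmb and Fasl under all 12 run for each (1.64 to 2.83 and 1.64 to 3.31); with the replicate block Gzmk no longer passed (3.25, adjusted p = 0.0631 by edgeR). Klrd1, at −0.16, turned positive with library totals alone (0.0963), limma-voom (0.17), the replicate block (0.37) and crossed pairing (0.38), and ran from −0.94 to 1.90 with single libraries left out. Ncr1 turned to 0.37 with library totals alone, and Gzma ran from −0.0296 to 1.25 with single libraries left out. The count of the 10 genes called higher (1) was 0 with library totals alone, 2 with no filter, 3 with DESeq2, 0 with the replicate block and 0 to 9 with single libraries left out, and the count called lower (0) was 0 to 1. All genes called higher (216) and lower (451) numbered 0 and 0 with library totals alone, 542 and 1188 with no filter, 1325 and 2430 with DESeq2, 0 and 0 with the block, and 0 to 6887 and 0 to 6922 with single libraries left out. Companion genes called higher (4) numbered 0 with library totals alone, 12 with no filter, 23 with DESeq2, 0 with the block and 0 to 69 with single libraries left out; those called lower (0) were 2 with DESeq2 and 0 to 16 with single libraries left out. At the counts of 0, genes at an unadjusted p under 0.05 numbered 1472 higher and 1505 lower with library totals, 1866 and 2734 with the block, 732 and 1318 without KO replicate 1, and 743 and 1342 without KO replicate 2. The cause of these differences was not tested. Library totals moved the median of all genes to 0.60. Deviations of same-numbered libraries correlated at −0.108 across genes. The WT libraries differed so widely that this value cannot show whether the replicate numbers pair the samples. Crossed pairing (202 and 643 calls), like the removal of Esm1 reads, was chosen after seeing the data. The median log2 ratio to T cell reads over the 10 genes was −0.72 with both WT libraries, 0.86 without WT replicate 1 and −2.44 without WT replicate 2. Ncr1 had 15 to 42 reads a library, and all 10 genes had under 50 reads in WT replicate 1, so counting error is large there; its part in the calls was not tested.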
